A study of Mus musculus with 13 samples.

Results

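The genes of oxidative phosphorylation (OXPHOS) that are encoded in the nucleus were examined in single excitatory neurons of the mouse claustrum and the cortex beside it. The members were all rows of the count tables whose symbol starts with Nduf, Uqcr, Atp5, Cox4i, Cox5, Cox6, Cox7 or Cox8, together with Sdha, Sdhb, Sdhc and Sdhd. This rule gave 89 of 23216 genes in the table of the projection mice, and 86 of 16786 genes in the table of the blindly sampled mouse. By name, 42 of the 89 belong to complex I, 4 to complex II, 8 to complex III, 16 to complex IV and 19 to complex V.

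OXPHOS is the last stage of respiration, carried out in the inner mitochondrial membrane. Complex I (NADH dehydrogenase) and complex II (succinate dehydrogenase) feed electrons to ubiquinone, complex III passes them to cytochrome c, and complex IV (cytochrome c oxidase) passes them to oxygen. Complexes I, III and IV pump protons, and complex V (ATP synthase) uses the proton gradient to make ATP, of which neurons spend a large part on ion pumping and synaptic transmission. Some rows caught by the rule are not subunits. Ndufaf1, Ndufaf2, Ndufaf3 and Ndufaf4 are assembly factors of complex I, Atp5s and Atp5sl encode proteins related to assembly rather than parts of the synthase, and Atp5l-ps1 and Atp5l2 are copies of Atp5l. Ndufa4 was counted under complex I by its name, although its protein is known as a subunit of complex IV.

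The data were counts per gene in hand-picked cells from 4 mature male C57BL/6 mice, read from the 3' end of transcripts in 13 plates. In 3 projection mice (10 plates), retrobeads of 2 colours placed in the lateral entorhinal cortex (LEC) and the retrosplenial cortex (RSC) marked claustral cells by where their axons end, and cells were picked as LEC, RSC or unlabelled. In the fourth mouse (3 plates), a virus (rAAV2-retro-CAG-GFP) in the anterior cingulate cortex showed where to dissect, and cells were picked blindly. A cell without beads may still project to either region. The plates of the fourth mouse are labelled as from a wild-type (WT) mouse, and no mutation or further treatment is given for any of the mice.

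Of 1112 harvested cells, 1011 had at least 1 count of Snap25, a gene of all neurons, and of Slc17a7, the vesicular glutamate transporter of cortical excitatory neurons: 773 from the projection mice and 238 from the blindly sampled mouse. Cells were called Synpr-high at 200 CPM (counts scaled to 1000000 per cell or sum) or more of Synpr (synaptoporin, a marker of the claustrum core) and Synpr-lower below it. There were 88, 88 and 149 Synpr-high and 136, 132 and 180 Synpr-lower cells in projection mice 1, 2 and 3, and 113 and 125 in the blindly sampled mouse. The median total per cell was 138535 to 154262 counts in the projection mice and 26023 in the blindly sampled mouse, which was also read on another flow cell with a longer second read, so the tables were kept apart. Cells were summed per mouse and group, and mice were the replicates. No cells shared plate and barcode, while 332 of 365 barcodes served more than 1 plate.

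The classes were set against markers of claustrum and cortex. Synpr itself set the classes and is no check on them. Of the other core-like markers, Gnb4 had 1353, 1352 and 1282 CPM in the Synpr-high sums of the projection mice against 133, 227 and 137 CPM in the Synpr-lower sums, and Lxn, Gfra1 and Nr4a2 were higher as well without overlap. The 3 shell-like markers (Slc30a3, Nnat, Spon1) had 60.8 to 101 CPM against 961 to 1876 CPM, and the 8 markers of deep cortex (among them Ctgf and Sla) 25.7 to 63.9 against 531 to 921 CPM. The Synpr-lower class therefore pooled cells with shell-like and with deep cortical markers.

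Regions just before the start of OXPHOS genes are known to hold sites for NRF1, for ETS factors such as GABPA and for YY1, which serve many of these genes. The 250 bases before each start were searched on both strands for the letters of these sites (RefSeq, build GRCm38.p6, 73 of 89 members matched, beside 27025 genes). The NRF1 core GCGCATGC was in 9 members (12.3%, against 2.56% of all genes). The ETS core CCGGAAG was in 13 members (17.8%, against 7.83%). The YY1 core AAGATGGC was in 2 members (2.74%, against 1.83%), and a site of the estrogen-related receptors, TCAAGGTCA, was in 1 (1.37%, against 0.422%). At least 1 of the first 3 was in 21 members (28.8%, against 11.5%). Of the members called lower in Synpr-high cells below, 14 were matched and 5 of these held at least 1. Whether the motifs go with the lower values was not tested. A match is a description of letters and says nothing about binding in these cells. The 100 bases that end just before the start are shown for 4 genes lower in Synpr-high cells whose region held a match, all on the minus strand, 5' to 3', with the match in capitals.
Atp5h, chr11:115419920-115420019: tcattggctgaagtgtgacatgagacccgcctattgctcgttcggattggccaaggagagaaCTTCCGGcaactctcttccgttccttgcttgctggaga
Ndufa6, chr15:82354292-82354391: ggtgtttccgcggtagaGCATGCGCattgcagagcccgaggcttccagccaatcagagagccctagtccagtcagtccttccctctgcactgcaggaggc
Uqcr11, chr10:80406822-80406921: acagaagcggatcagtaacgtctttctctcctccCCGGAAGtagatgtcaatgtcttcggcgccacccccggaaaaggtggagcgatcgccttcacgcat
Uqcrh, chr4:116075071-116075170: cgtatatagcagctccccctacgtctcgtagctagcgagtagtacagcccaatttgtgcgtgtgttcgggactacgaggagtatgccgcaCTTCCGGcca
The ETS core lies close to the start in Uqcrh (first base 10 before it), farther in Atp5h (38) and Uqcr11 (66), and the NRF1 core of Ndufa6 begins 83 bases before the start.

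The first question was whether core-like neurons, those high in Synpr, devote the same part of their transcripts to OXPHOS as the other excitatory neurons. They did not in any mouse: the summed share of all counts was lower in the Synpr-high cells of all 4 mice. In the projection mice the share was 3.42%, 3.53% and 3.51% in the Synpr-high sums and 4.02%, 4.08% and 4.12% in the Synpr-lower sums. The classes did not overlap. The means were 3.48 ± 0.0563% and 4.08 ± 0.0529% (SD, n = 3), a difference of -0.591 ± 0.0294 percentage points and a ratio of 0.855 ± 0.00715. In the blindly sampled mouse, which has no replicate, the shares were 3.38% and 3.91%, a ratio of 0.863. No p is given for a sum over these genes.

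**Figure D1:**
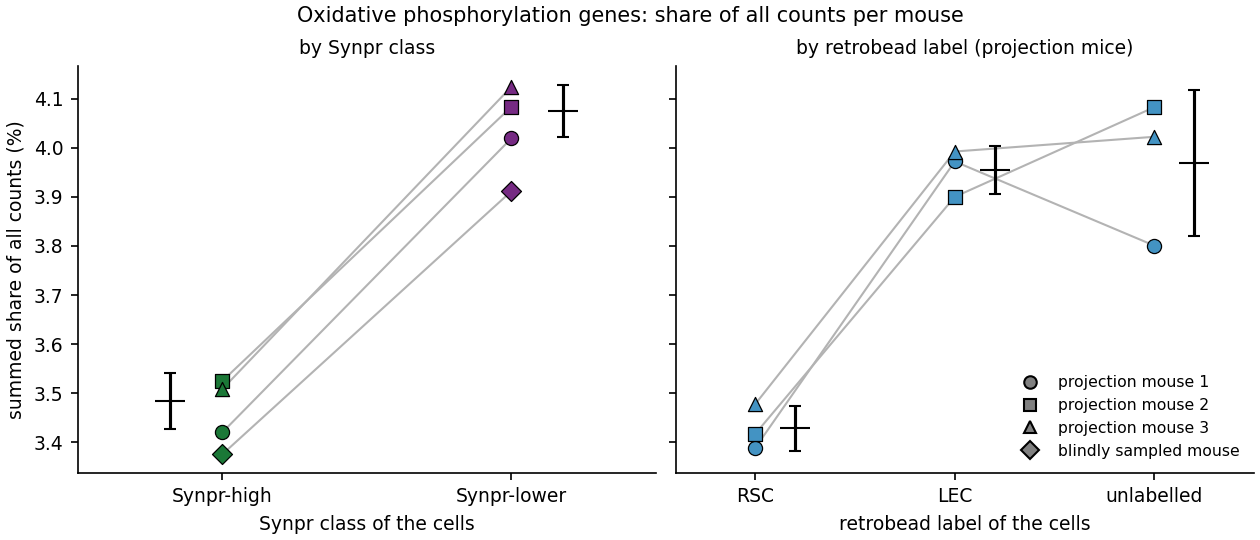
Summed share of all counts taken by the OXPHOS genes (vertical axis, percent, not starting at 0) by Synpr class in 4 mice (left) and by retrobead label in the 3 projection mice (right). Each symbol is 1 mouse, lines join sums of the same mouse, and bars give mean and SD over the projection mice; Synpr-high sums lie at 3.38 to 3.53% and Synpr-lower sums at 3.91 to 4.12%, and RSC sums lie below LEC sums in each mouse.

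A share is relative to all other transcripts of the same cells. ERCC spike-in RNA was counted together with each cell, and per spike-in count the Synpr-high cells of the projection mice had more counts in total, by a ratio of 1.31 ± 0.0678 (SD, n = 3), and 1.13 in the blindly sampled mouse. Counts of the OXPHOS genes per spike-in count were 0.463, 0.432 and 0.522 in the Synpr-high and 0.430, 0.395 and 0.443 in the Synpr-lower sums of the projection mice, a ratio of 1.12 ± 0.0538. In the blindly sampled mouse they were 0.586 and 0.601, a ratio of 0.976. The lower values in this section are thus lower parts of all counts, and not fewer OXPHOS counts per spike-in count in the projection mice.

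The shift was found in single cells as well as in the sums. After every cell was thinned to 20000 counts, the median share per cell was 3.34%, 3.36%, 3.36% and 3.40% in the Synpr-high cells of projection mice 1, 2 and 3 and the blindly sampled mouse. The Synpr-lower cells of the same mice had medians of 3.96%, 4.0%, 4.03% and 3.91%. Between 89.7% and 95.3% of the Synpr-high cells of a mouse lay below the median of its Synpr-lower cells. Shallower cells were left out, at most 6 per class in a projection mouse, and 28 Synpr-high and 39 Synpr-lower cells in the blindly sampled mouse.

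Depth and plate were read beside the shift. The median total per cell was higher in the Synpr-high cells of projection mice 1 and 3 and lower in those of projection mouse 2 and the blindly sampled mouse. Within 3 ranges of total counts per cell (under 100000, 100000 to under 200000, and 200000 or more) the differences were -0.648 ± 0.0303, -0.635 ± 0.181 and -0.609 ± 0.0627 percentage points (SD, n = 3 mice). The share itself rose with total counts in both classes of projection mice 1, 2 and 3. In Synpr-high cells it was 2.98, 3.03 and 3.02% in the lowest range and 3.48, 3.74 and 3.68% in the highest. In Synpr-lower cells it was 3.66, 3.64 and 3.67% in the lowest range and 4.16, 4.29 and 4.28% in the highest. In 12 plates with at least 5 cells of both classes the Synpr-high share was lower in 12, by differences of -0.390 to -0.837 percentage points. Only 1 of these plates held more than 1 label, so a comparison within plates is also one within labels. The classes were unevenly spread over plates, from 76 Synpr-high and 3 Synpr-lower cells in a plate of RSC cells to 6 and 80 in a plate of LEC cells, and counts per spike-in count went with class as given above. The part of depth in the result was not tested.

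Graded by Synpr itself, the share stood at 4.07 ± 0.0140% (SD, n = 3 mice) in cells without a Synpr count and at 4.09 ± 0.120% from there to under 200 CPM. It was 3.74 ± 0.317% at 200 to under 1000 CPM, where there were only 37 cells, and 3.45 ± 0.0574% and 3.49 ± 0.0832% at 1000 to under 2000 CPM and above. The range between, with the fewest cells, overlapped with its neighbours, and the top ranges did not differ beyond their spread.

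All 5 complexes had the lower share in Synpr-high cells, and in none of them did the classes of the projection mice overlap. The ratio of shares was lowest for complex III (0.808 ± 0.0132, SD, n = 3), followed by complex II (0.824 ± 0.0255), complex IV (0.848 ± 0.00786), complex I (0.854 ± 0.00871) and complex V (0.882 ± 0.00752). Complexes II, IV and I were within their spread of each other. In the blindly sampled mouse the ratios were 0.849, 0.952, 0.830, 0.869 and 0.878 in the same order, so that complex II, the smallest by share, came nearest to 1 there. Complex I took the largest share, 1.45 ± 0.0277% against 1.70 ± 0.0298%, and complex II the smallest, 0.102 ± 0.000877% against 0.124 ± 0.00412%. Moving Ndufa4 to complex IV gave ratios of 0.859 for complex I and 0.842 for complex IV.

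**Figure D2:**
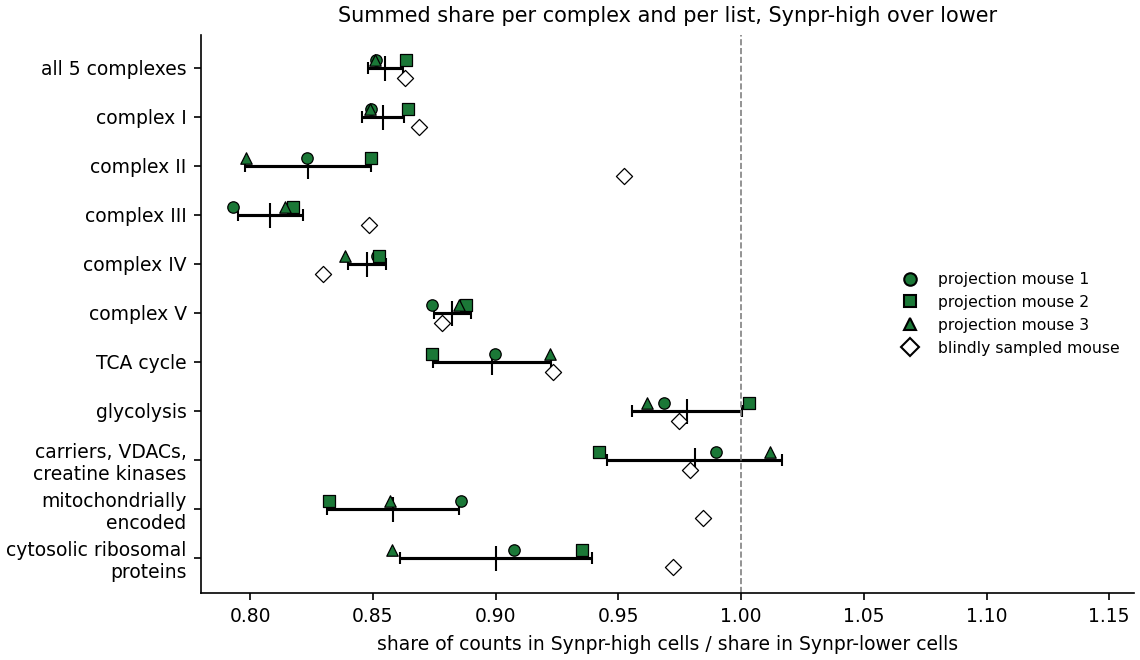
Ratio of the summed share in Synpr-high cells to that in Synpr-lower cells (horizontal axis, not starting at 0, 1 is no difference) for all OXPHOS genes, each complex and 5 other gene lists. Filled symbols are the projection mice with their mean and SD, open diamonds the blindly sampled mouse; every complex lies below 1 in each mouse, while glycolysis and carriers reach or pass 1 in 1 projection mouse.

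Gene by gene, 84 of the 89 members had enough counts to be tested. The other 5 were Atp5l-ps1 (14 counts in the kept cells), Cox4i2 (0), Cox6a2 (22), Cox6b2 (12) and Ndufa4l2 (3), of which Cox4i2, Cox6a2, Cox6b2 and Ndufa4l2 are known from lung, muscle, testis and oxygen-starved cells rather than from resting neurons. In the comparison of Synpr-high with Synpr-lower sums (edgeR quasi-likelihood test, 3 mice, adjusted over 13957 genes), 16 members passed at an adjusted p under 0.05. All 16 were lower in Synpr-high cells, in 3 of 3 mice, and 0 were higher. At an unadjusted p under 0.05, 31 members were lower and 3 higher, and of all 13957 genes 1608 were lower and 1655 higher. The 16 called members make 19% of the members tested, where 5.55% of all tested genes were called lower and 5.77% higher. DESeq2 called 23 members lower and 0 higher, and of all 13957 genes 1115 lower and 1132 higher.

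The changes were small, with log2 fold changes from -0.22 to -0.46. Over the 84 members, 70 (83.3%) lay below 0 with a median of -0.18, against a median near 0 (-0.0045) over all genes. The sums of 44 members (52.4%) did not overlap between the classes with Synpr-high lower, where 14.7% of all genes were so, and those of 3 members (3.57%) did not overlap in the other direction, where again 14.7% of all genes were so. All 16 called members also lay below 0 in the blindly sampled mouse. The calls need all 3 mice: without projection mouse 1, 2 or 3, 1, 0 and 0 of the 84 members passed. Lower calls over all genes fell as well, from 775 of 13957 to 403 of 14439, 299 of 14385 and 289 of 14039. In these fits the members were not called lower more often than all genes. The difference in summed share stayed between -0.578 and -0.607 percentage points.

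**Figure D3:**
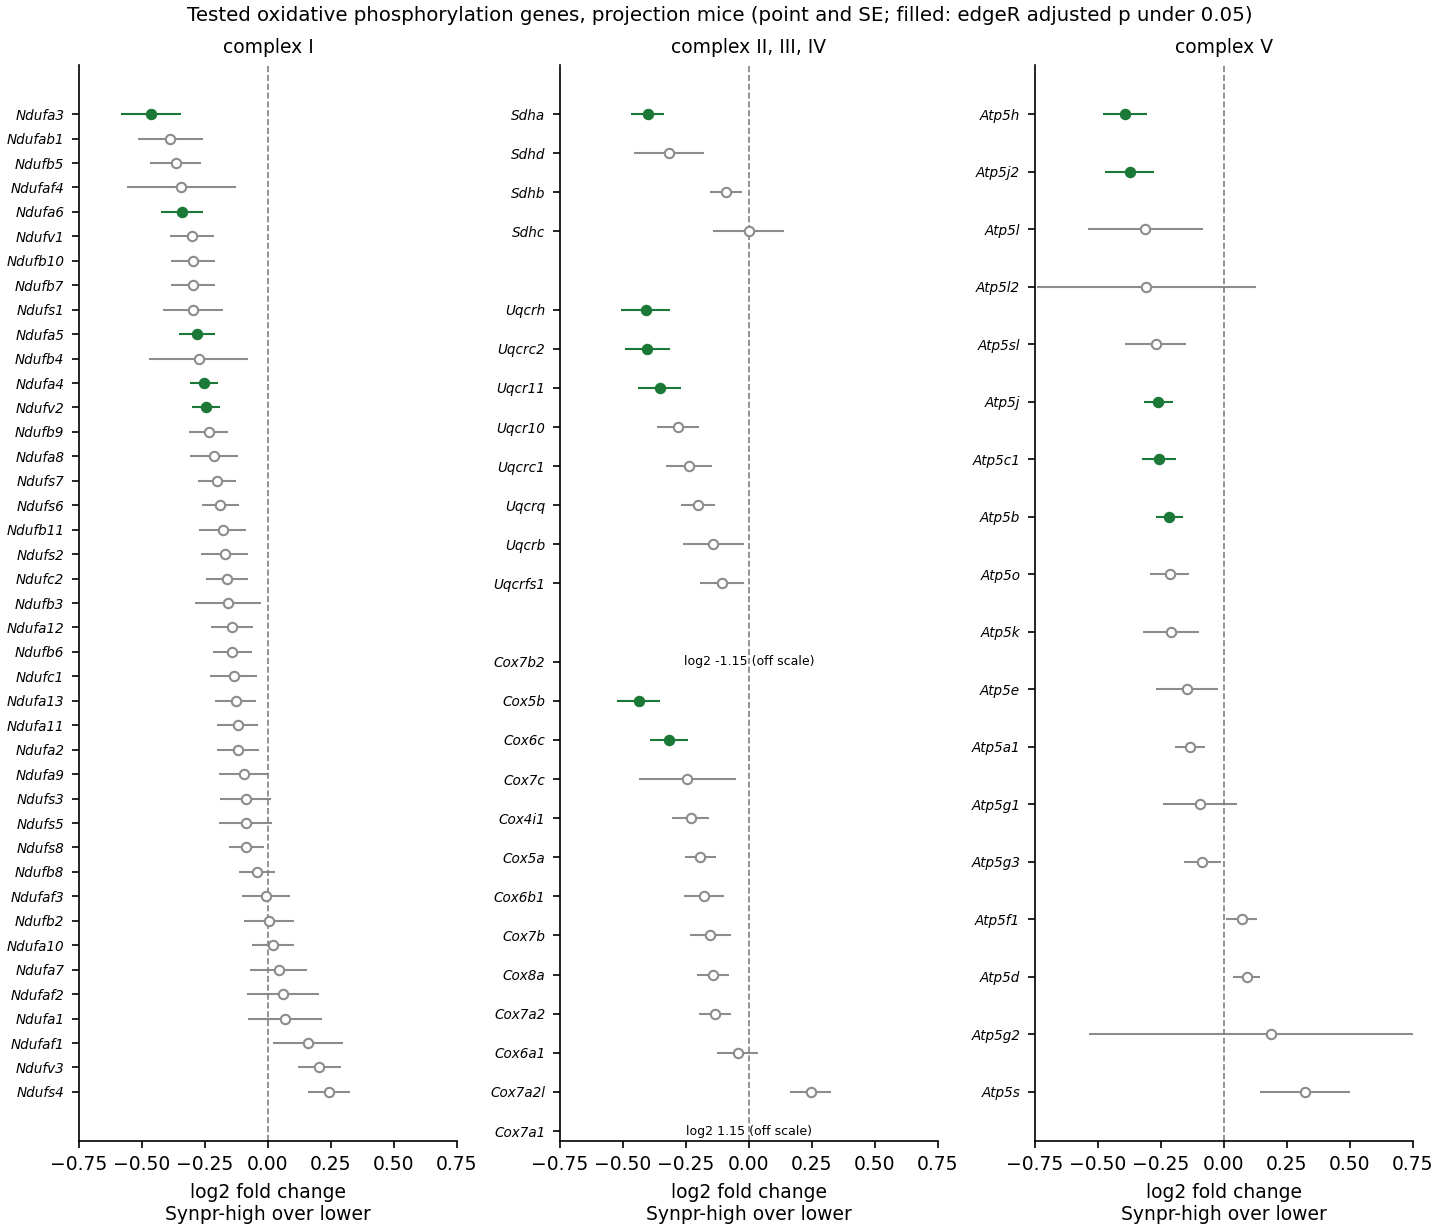
Log2 fold change, Synpr-high over Synpr-lower (horizontal axis), of the 84 tested members in the projection mice, by complex. Points with bars are estimates and standard errors of edgeR, filled where the adjusted p is under 0.05; 70 of 84 points lie left of 0, and the filled ones are all left of it.

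Complex I accepts electrons from NADH through a flavin and a chain of iron-sulfur clusters. Of its 41 tested members 5 were lower and 33 lay below 0, with a median log2 fold change of -0.16. Ndufa4, the member with the most counts of those named Nduf, had 1402, 1404 and 1508 CPM in the Synpr-high and 1647, 1710 and 1786 CPM in the Synpr-lower sums of projection mice 1, 2 and 3. Every Synpr-high sum was below every Synpr-lower sum (log2 -0.25, SE 0.0570, edgeR adjusted p = 0.0238). Ndufv2, a core subunit at the entry of electrons, had 800, 781 and 777 CPM against 941, 909 and 945 CPM (log2 -0.25, adjusted p = 0.0255, edgeR).

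The other 3 called members of complex I are accessory subunits, which surround the catalytic core. Ndufa3 had the largest change of all called members, 185, 171 and 210 CPM against 231, 255 and 295 CPM (log2 -0.46, SE 0.120, edgeR adjusted p = 0.0421). Ndufa6 had 360, 407 and 408 CPM against 475, 479 and 532 CPM (log2 -0.34, edgeR adjusted p = 0.0333). Ndufa5 had 554, 582 and 617 CPM against 690, 687 and 752 CPM (log2 -0.28, edgeR adjusted p = 0.0404). In all 3 the classes did not overlap. Ndufa5 differed little in the blindly sampled mouse, where its log2 ratio was -0.032.

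With the mouse kept as a block, Ndufb5 (adjusted p = 0.0395), Ndufb9 (0.0397) and Ndufb10 (0.0335), all accessory subunits of the membrane arm, passed as well in edgeR. Not all of complex I went one way. Ndufs4, an accessory subunit known from mouse models of Leigh syndrome, had 301, 293 and 273 CPM in the Synpr-high and 235, 260 and 238 CPM in the Synpr-lower sums, with no overlap (log2 0.24, edgeR adjusted p = 0.116). Ndufv3, of the NADH-binding part, had 487, 548 and 569 against 432, 468 and 492 CPM (log2 0.20, edgeR adjusted p = 0.193). Neither passed. Both were singled out after their values were seen, and both lay above 0 in the blindly sampled mouse too (0.28 and 0.22).

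Complex II, which also serves as an enzyme of the TCA cycle, had 1 of 4 members lower. Sdha, its flavoprotein and catalytic subunit, had 392, 387 and 383 CPM against 517, 492 and 527 CPM (log2 -0.40, SE 0.0666, edgeR adjusted p = 0.00632), the lowest p of all members. Sdhb, the iron-sulfur subunit, had 483, 479 and 460 against 510, 506 and 498 CPM (log2 -0.09, edgeR adjusted p = 0.472). Sdhc and Sdhd anchor the complex in the membrane. Sdhc overlapped between classes, with 67.9, 92.0 and 78.7 against 80.7, 73.4 and 84.4 CPM (log2 near 0, edgeR adjusted p = 0.999). Sdhd did not overlap, with 98.7, 84.0 and 103 against 115, 104 and 137 CPM, but missed the threshold (log2 -0.32, edgeR adjusted p = 0.214).

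Complex III had the lowest median, -0.26 on the log2 scale, with 3 of 8 members lower and 8 of 8 below 0. Uqcrc2, a core protein of the matrix side, had 222, 221 and 247 CPM against 327, 288 and 296 CPM (log2 -0.40, SE 0.0895, edgeR adjusted p = 0.0230). Uqcrh, the hinge protein that helps hold cytochrome c, had 264, 301 and 258 against 336, 362 and 395 CPM (log2 -0.41, edgeR adjusted p = 0.0288). Uqcr11, a small accessory subunit, had 179, 186 and 192 against 227, 232 and 252 CPM (log2 -0.35, edgeR adjusted p = 0.0326). None of the 3 overlapped between classes. Uqcrq, the member of this complex with the most counts, had 538, 532 and 546 against 584, 635 and 639 CPM and did not pass (log2 -0.20, edgeR adjusted p = 0.0976).

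Complex IV had 2 of 13 tested members lower and 11 below 0, with a median of -0.18. Cox5b, a nuclear subunit on the matrix side, had 363, 413 and 372 CPM against 475, 550 and 528 CPM (log2 -0.44, SE 0.0862, edgeR adjusted p = 0.0137). Cox6c had 373, 368 and 403 against 465.9, 460.5 and 499 CPM (log2 -0.32, edgeR adjusted p = 0.0280). The classes were apart in both. Cox4i1, the most counted of all members, had 2624, 2852 and 2364 against 3065, 3232 and 2904 CPM without overlap. Its adjusted p was 0.0881 in edgeR without and 0.0193 with the mouse as a block (log2 -0.23).

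Several subunits of complex IV exist as paralogs that tissues use in place of each other. The forms known from most tissues carried the counts here: Cox6a1 (log2 -0.05), Cox6b1 (-0.18), Cox7a2 (-0.14), Cox7b (-0.15) and Cox8a (-0.14), of which none passed. The muscle form Cox7a1 (176 counts in all) and the testis form Cox7b2 (231 counts) were too sparse to read. Cox7a2l is known as a factor in supercomplexes of complexes III and IV, a role that was not examined in these mice. It went the other way with 227, 214 and 224 CPM in Synpr-high and 184, 191 and 186 CPM in Synpr-lower sums, apart in every mouse (log2 0.24, edgeR adjusted p = 0.0989). In the blindly sampled mouse it stood close to 0 (log2 ratio -0.0047).

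Complex V turns a rotor in the membrane against a catalytic head. Of 18 tested members 5 were lower and 14 lay below 0, with a median of -0.21. From the head, Atp5b (beta subunit) had 979, 999.7 and 1033 CPM against 1176, 1147 and 1177 CPM (log2 -0.22, SE 0.0539, edgeR adjusted p = 0.0357). Atp5c1, the central stalk, had 524, 586 and 563 against 684, 659 and 656 CPM (log2 -0.26, edgeR adjusted p = 0.0447), a call lost with the mouse as a block (0.0638). Atp5a1, the alpha subunit that pairs with Atp5b in the head, had 1212, 1335 and 1236 against 1374, 1430 and 1348 CPM (log2 -0.13, edgeR adjusted p = 0.215).

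The other called members of complex V belong to the stator and the membrane part. Atp5h (subunit d) had 265, 316 and 289 CPM against 371, 391 and 380 CPM (log2 -0.39, SE 0.0862, edgeR adjusted p = 0.0221). Atp5j (coupling factor 6) had 785, 769 and 799 against 962, 912 and 942 CPM (log2 -0.26, edgeR adjusted p = 0.0222). Atp5j2 (subunit f) had 267, 300 and 320 against 368, 360 and 422 CPM (log2 -0.37, edgeR adjusted p = 0.0447). In all 3 the classes did not overlap. Atp5d, the delta subunit and the most counted member of the complex, was at 1692, 1738 and 1650 against 1589, 1657 and 1523 CPM (log2 0.09, edgeR adjusted p = 0.379). The 3 genes for the rotor's c subunit, Atp5g1, Atp5g2 and Atp5g3, had log2 fold changes of -0.10, 0.19 and -0.09 and none passed, with 98 counts in all for Atp5g2.

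Some members share sequence with processed copies elsewhere in the genome, and the counting of reads that match several places is not given in the sources used here. In the last 500 bases of their transcripts (GENCODE), 59 of 87 members had no exact run of 50 bases in the transcripts of another gene. Atp5l (75.2% of such runs), Atp5h (60.3%) and Ndufs3 (53.9%) had the most. Among the called members 9 had any, and after Atp5h these were Cox6c (21.3%), Cox5b (17.5%), Uqcr11 (10.9%) and 5 with less, so Atp5h is uncertain. Levels also differed between the tables: Cox7c had 315 CPM in the blindly sampled mouse and 26.5 on average in the projection mice, and Atp5g1 583 and 56.6 CPM. Mouse cannot be told apart there from flow cell and read length, if these went by table, and levels are compared only within a table.

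The second question was whether the bead labels, read without regard to Synpr, differ in the same genes. RSC cells had the lowest share: 3.39%, 3.42% and 3.48% in projection mice 1, 2 and 3, against 3.97%, 3.90% and 3.99% in LEC cells and 3.80%, 4.08% and 4.02% in unlabelled cells. RSC and LEC sums did not overlap, and LEC and unlabelled sums did. RSC less LEC was -0.526 ± 0.0514 percentage points (SD, n = 3), a ratio of 0.867. The shift was not limited to these genes: the shares of cytosolic ribosomal proteins (ratio 0.871), mitochondrially encoded genes (0.871) and regulators of mitochondrial genes (0.779) did not overlap between RSC and LEC either, while those of glycolysis (0.982) and of carriers (0.998) did. The labels differ in class, since 52 of 64, 56 of 70 and 105 of 113 RSC cells were Synpr-high but only 18 of 80, 11 of 76 and 16 of 130 LEC cells. The 5 inhibitory markers in the table together had 6.80 to 197 CPM in RSC and 0.163 to 0.893 CPM in LEC sums, with Sst called higher (edgeR adjusted p = 0.0219), and the 5 oligodendrocyte markers had 37.4 to 878 against 110 to 359 CPM. Their part in the result was not tested. Labels also differed in plate. In projection mice 1 and 2 every label had a plate of its own, and in projection mouse 3 only 1 plate held both RSC and LEC cells. Label and plate therefore cannot be told apart in these comparisons.

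Single genes were harder to call between labels. Of 84 members 1 was lower in RSC than in LEC cells and 0 were higher (edgeR, adjusted over 13976 genes, unadjusted 24 lower and 0 higher), where 2.06% of all genes were called lower and 1.89% higher. At an unadjusted p under 0.05, 1160 of all genes were lower and 1130 higher. DESeq2 called 10 members and 592 of all genes lower. The called gene was Ndufa6, with 346, 378 and 399 CPM in RSC and 470, 477 and 515 CPM in LEC cells (log2 -0.38, SE 0.0935, edgeR adjusted p = 0.0477), and it passed in no fit that left out a mouse. With the mouse as a block Ndufb10 (662, 764 and 732 against 941, 951 and 899 CPM) passed too, at an adjusted p of 0.0382 in edgeR, so that 2 were lower.

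The direction was as widespread as between the Synpr classes. Of the 84 members 75 (89.3%) lay below 0, with a median log2 fold change of -0.19 against -0.0012 over all genes. The sums of 38 members (45.2%) did not overlap with RSC lower, where 11.3% of all genes were so, and 1, Atp5d, did not overlap with RSC higher (10.7% of all genes). Next in order of p after Ndufa6 and Ndufb10 came Uqcr11 (log2 -0.45), Cox5b (-0.41), Atp5h (-0.37), Atp5c1 (-0.31), Sdha (-0.35), Uqcr10 (-0.38), Atp5j2 (-0.37) and Uqcrh (-0.33), with edgeR adjusted p from 0.0551 to 0.138. None of these 8 passed, and in none did RSC and LEC sums overlap.

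Against unlabelled cells, RSC cells had 0 members called either way (edgeR, unadjusted 26 lower and 0 higher), where 0.93% of all genes were called lower and 0.701% higher. Unadjusted, 980 of all 13976 genes were lower and 908 higher. DESeq2 called 15 members lower (365 of all genes), and the block called 1, Atp5j2 (124 of all genes). This comparison uses the same RSC sums as the one with LEC. LEC and unlabelled cells had 0 members called in edgeR and in DESeq2, 0 at an unadjusted p under 0.05, and 50 of 84 below 0, with 0% of all genes called lower and 0% higher in edgeR. Unadjusted, 562 of all genes were lower and 517 higher, and DESeq2 called 63 lower and 51 higher.

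Since label and class go together, each was read with the other held. Within every label the Synpr-high sum was lower than the Synpr-lower sum in 3 of 3 projection mice. The difference was -0.529 ± 0.0806 percentage points in LEC cells, -0.410 ± 0.0298 in RSC cells and -0.501 ± 0.0122 in unlabelled cells (SD, n = 3). RSC cells in turn were below LEC cells of the same class in 3 of 3 mice, by -0.162 ± 0.134 among Synpr-high and -0.281 ± 0.0991 among Synpr-lower cells. They were also below unlabelled cells of the same class in 3 of 3 mice, by -0.253 ± 0.172 and -0.344 ± 0.166. Some of these sums rest on as few as 8 cells, and between labels the plate differs too. The median total per cell was also lower in RSC than in LEC cells of the same class in 3 of 3 mice. Among Synpr-high cells it was 208810, 97775 and 157751 against 241912, 194344 and 220804 counts. Among Synpr-lower cells it was 143314, 100246 and 128543 against 157618, 140073 and 147514 counts. The share rose with total counts per cell, as given above, and the part of depth was not tested.

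**Figure D4:**
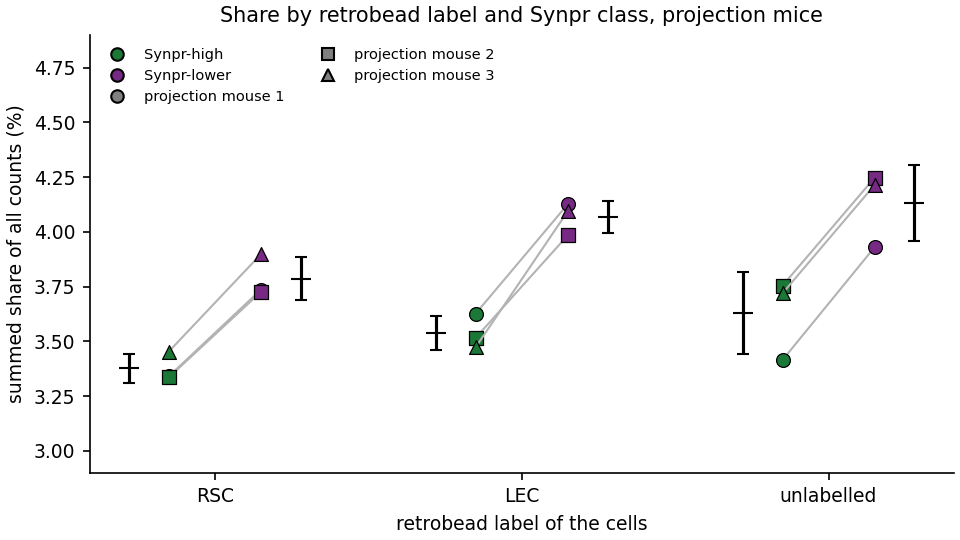
Summed share of all counts taken by the OXPHOS genes (vertical axis, percent, not starting at 0) by retrobead label and Synpr class in the projection mice. Symbols are mice, lines join the classes of a mouse, bars are mean and SD; in each label and mouse the Synpr-high sum lies below the Synpr-lower sum, with means of 3.38 and 3.79% in RSC, 3.54 and 4.07% in LEC and 3.63 and 4.13% in unlabelled cells.

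In the test within label, 15 of 83 members (18.1%) were lower and 2 higher in Synpr-high cells (edgeR, unadjusted 25 and 3), where 5.37% of all 13163 genes were called lower and 6.24% higher (unadjusted 1414 and 1601). Complex I gave 6 of the lower genes, among them Ndufv2 (log2 -0.32, edgeR adjusted p = 0.00182), Ndufb5 (-0.40, 0.00369), Ndufv1 (-0.34, 0.0114) and Ndufs1 (-0.44, 0.0228). Ndufv1 and Ndufs1 carry the flavin and iron-sulfur clusters at the entry of electrons. Sdha (-0.37, 0.00863), Cox5b (-0.37, 0.00246) and Cox4i1 (-0.22, 0.00534) were lower as well, all by edgeR, and so were Ndufa6, Ndufs7, Uqcrc2, Uqcrh, Atp5h, Atp5j, Atp5j2 and Atp5b. The 18 sums of this fit come from 3 mice, so sums of different labels are not independent replicates, which its p-values do not take into account. With the mouse as a block 14 members were lower and 2 higher, and Atp5b lost its call (edgeR adjusted p = 0.0594). Without projection mouse 1, 2 or 3 the lower calls were 2, 8 and 3. Over all genes they were 398 of 13272, 380 of 13550 and 342 of 13240.

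The 2 higher genes were Ndufv3 (log2 0.39, SE 0.0718, edgeR adjusted p = 0.00122) and Cox7a2l (0.37, SE 0.112, edgeR adjusted p = 0.0408). Ndufv3 was higher in Synpr-high cells in each of 9 pairs of sums, which come from 3 mice and 3 labels, as in RSC cells with 435, 471 and 539 against 375, 333 and 322 CPM. Cox7a2l was higher in 8 of 9 pairs, the exception being LEC cells of projection mouse 2 (203 against 220 CPM). In RSC cells Cox7a2l had 238, 215 and 231 against 174, 138 and 84.9 CPM. Without projection mouse 1, 2 or 3, the higher calls were 1, 0 and 1, and over all genes 483, 487 and 412.

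Between RSC and LEC within class, 0 members passed in edgeR (unadjusted 16 lower and 2 higher, lowest adjusted p 0.181, 1 lower by DESeq2), where 0.0076% of all genes were called lower and 0.038% higher. Unadjusted, 757 of all 13163 genes were lower and 651 higher, and DESeq2 called 77 lower. A test of whether the step from LEC to RSC differs between the Synpr classes gave 0 members in edgeR (unadjusted 0 lower and 4 higher) and 0 in DESeq2. In edgeR 0.0456% of all genes were called lower and 0.076% higher (unadjusted 395 and 922 genes). The median of this difference over all genes was 0.13 on the log2 scale in edgeR and 0.017 in DESeq2, and over the members 0.028 and -0.059, so the sign of the members' median differed between the tools.

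In the blindly sampled mouse there is 1 sum per class and no test. Of 81 members with at least 50 counts, 69 lay below 0 with a median log2 ratio of -0.21, against -0.047 over 9339 genes. Past 1.5-fold, 1 member was lower and 0 higher, where 15.1% of all genes were lower and 11.5% higher by that size. That gene was Atp5l, with 13.3 CPM (exact Poisson 95% interval 9.73 to 17.7) against 20.4 CPM (16.2 to 25.4), intervals that cover counting error only. Whether the tables count reads or molecules is not given beside them, and for reads such an interval would be too narrow. It rests on 46 and 80 counts and shares most of its end with copies. Next came Ndufb11, chosen after its values were seen, with 134 against 199 CPM (log2 ratio -0.57).

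Set side by side, 69 of the 81 members (85.2%) had the same sign in the projection mice and in the blindly sampled mouse, 63 below and 6 above 0. Across these genes Pearson's r was 0.710 and Spearman's rho 0.691, and over all 9270 genes in both tables they were 0.736 and 0.522, with 67.2% of the same sign. Genes are not independent replicates, and no p is given.

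**Figure D5:**
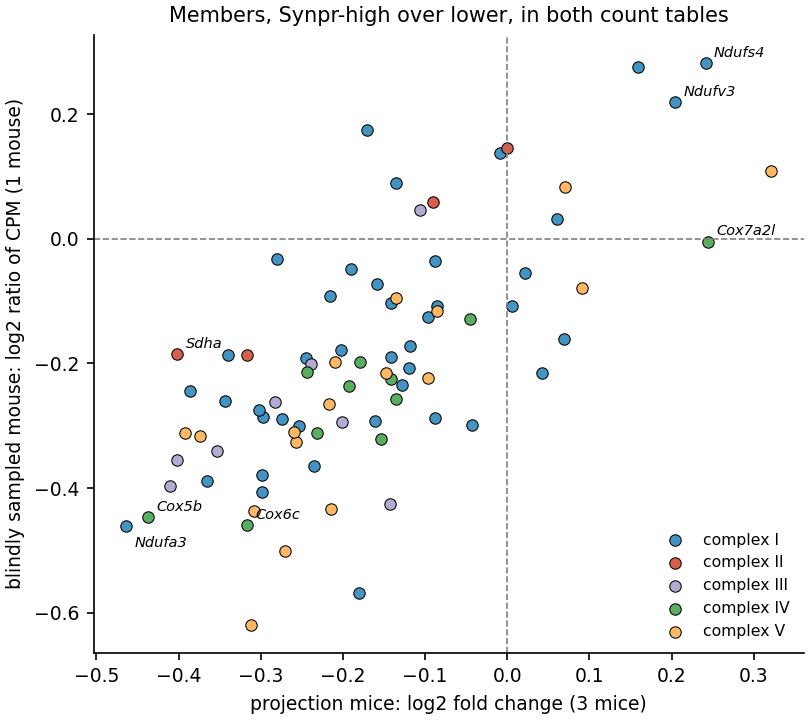
Log2 fold change, Synpr-high over Synpr-lower, of 81 members in the 3 projection mice (horizontal axis) against the log2 ratio of CPM in the blindly sampled mouse (vertical axis), coloured by complex. Most points, 63 of 81, lie at the lower left, and Ndufs4 and Ndufv3 are among the 6 in the upper right.

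Genes around the OXPHOS complexes were read from lists for the same comparison of Synpr classes. Counts of called genes in lists this short are set against the 5.55% of all genes called lower and 5.77% called higher, and no list had more than 2 in a direction. The TCA cycle, which supplies NADH and succinate, had a share ratio of 0.899 ± 0.0241 (SD, n = 3) without overlap, and among the lower of its 15 tested members was Ogdh, of the oxoglutarate dehydrogenase complex (log2 -0.38, edgeR adjusted p = 0.0261). Glycolysis overlapped between classes at a ratio of 0.978 ± 0.0222. In it Ldha, a lactate dehydrogenase subunit, was higher, with 1579, 1600 and 1370 against 1112, 1209 and 1014 CPM (log2 0.45, edgeR adjusted p = 0.0121). Pfkp, a phosphofructokinase, was lower (-0.39, 0.0194), and 16 genes were tested.

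Of 15 electron carriers and assembly factors of complexes III and IV, 1 was lower: Cyc1, which is cytochrome c1 of complex III, with 481, 454 and 472 against 572, 619 and 584 CPM (log2 -0.34, edgeR adjusted p = 0.0144). The median log2 fold change was -0.11, the list's share ratio was 0.830 ± 0.0396 (SD, n = 3), and 0.823 in the blindly sampled mouse. Of 10 regulators 1 was lower, Ppargc1a, which encodes the coactivator PGC-1alpha that drives mitochondrial gene expression. It had 23.8, 22.7 and 27.7 against 50.8, 37.9 and 40.5 CPM, apart in every mouse (log2 -0.80, SE 0.179, edgeR adjusted p = 0.0236). The median log2 fold change of the regulators was -0.011, with 5 of 10 below 0, and 0.22 in the test within label. Their share went the other way in the blindly sampled mouse, with a ratio of 1.10.

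Among 11 carriers and related genes, Slc25a4, an ADP/ATP carrier, was higher (log2 0.21, edgeR adjusted p = 0.0169), while Ckmt1, the mitochondrial creatine kinase (-0.52, 0.0232), and the channel Vdac2 (-0.31, 0.0369) were lower. The list's share overlapped between classes at a ratio of 0.981 ± 0.0357 (SD, n = 3). Of 7 tested genes of the mitochondrial genome, which encodes further subunits of complexes I, III, IV and V, 1 was lower. This was mt-Cytb, the cytochrome b of complex III, with 10420, 10129 and 10352 against 11970, 12407 and 12358 CPM (log2 -0.25, SE 0.0310, edgeR adjusted p = 0.00151), and it was lower in RSC than in LEC cells too (-0.24, 0.0331).

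The share of the mitochondrially encoded genes had a ratio of 0.858 ± 0.0269 (SD, n = 3) in the projection mice but 0.984 in the blindly sampled mouse. Cytosolic ribosomal proteins, a large group outside mitochondria, overlapped at 0.900 ± 0.0391 and 0.972, with 1 of 81 lower, Rpl22l1 (log2 -0.55, edgeR adjusted p = 0.0348), and 56 of 81 below 0. Between RSC and LEC cells none of the genes in these 7 lists passed except mt-Cytb.

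Markers of other cells differed along with the classes in part. The 5 oligodendrocyte markers had 32.4 to 337 CPM over the Synpr-high sums of the projection mice and 104 to 598 CPM over the Synpr-lower sums. The 5 inhibitory markers in the table had 5.78 to 142 against 0.697 to 33.0 CPM, and Sst among them was higher (log2 5.04, edgeR adjusted p = 0.0346). Those of astrocytes had 0.942 to 2.51 against 2.07 to 3.11 CPM, with Aqp4 at 0 in the Synpr-high sums, and those of microglia 0.241 to 5.84 against 0.147 to 1.54 CPM. The 2 endothelial markers in the table were under 1 CPM, Pecam1 at 0 in the Synpr-lower sums. All 3 glutamatergic markers together had 3878 to 5644 against 3199 to 3859 CPM. The part of such RNA in the OXPHOS result was not tested. With only the Synpr-lower cells that had Slc30a3, the difference in share was -0.630 ± 0.0354 percentage points (SD, n = 3). That choice uses a shell-like marker and does not address RNA of other cells.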

How the data were processed

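Counts per gene and cell, not normalized, and tables giving mouse and retrobead label of each cell were deposited by the authors. Per the labels and the Methods, reads were tagged to barcodes and aligned with STAR, and the submitters' processing notes name NCBIM37 and Seurat. The versions, annotation, strand use and treatment of reads with several matches, and whether reads or molecules were counted, are not given in the sources used here. Cells passed with 1 count or more of both Snap25 and Slc17a7 (1011, with 434 to 495406 counts each), spike-in rows were left out of totals, and counts were summed per mouse and group within each table, with 0 columns of cells unused. Totals per mouse were 7379776 counts (blindly sampled mouse) and 33258021 to 54723091 counts (projection mice).

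Sums of at least 5 cells were compared with edgeR 4.0.16 (R 4.3.3, limma 3.58.1; TMM scaling, low counts removed by filterByExpr, the quasi-likelihood test, p-values adjusted by Benjamini-Hochberg over all tested genes, threshold 0.05). Fits used Synpr class, label, or label by class, and DESeq2 1.42.0 served as an alternative; the study's test of single cells was not used, since cells are not replicates. The fits by Synpr class and by label (RSC against LEC) were tested on simulated data, with changed genes drawn from all levels. Of the genes changed 1.25-fold, 1 of 96 and 0 of 94 were called, and of those changed 2-fold, 46 of 96 and 20 of 94. There was 1 false call in both fits. A gene that did not pass may therefore still differ by such small amounts. The simulated sums were not paired by mouse, and rates over all levels are not the rates at the members' levels. Same-numbered sums come from the same mouse, so the mouse pairs them; deviations from group means correlated weakly within mice (median 0.0540 over 3 pairs of the Synpr fit, other mice -0.0281), and fits with the mouse as a block are given where they change a call. Shares are sums over genes in percent of all counts. The blindly sampled mouse allowed no test, so ratios past 1.5-fold among genes with 50 counts are counted. Because animals, not cultures, are the replicates, spreads are between mice.

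The members and lists were chosen with earlier results of these data known. Named genes were those past the threshold (or the lowest 10 by p), the most counted gene of each complex, the Sdh genes, the paralogs, and up to 3 called genes per list, of which 1 is not reported here. Promoters are from RefSeq on GRCm38.p6, transcripts from GENCODE; counts are 3' tags, so levels of different genes are not compared. Alternatives were other scalings, filters, depths, cell and Synpr limits, and leaving out each mouse; values per plate, per depth range and per spike-in count, Ndufa4 under complex IV, and both tables with a block were added after seeing the data. Python 3.11.15, numpy 2.4.6, pandas 2.3.3, scipy 1.17.1 and matplotlib 3.10.9 were used.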

Additional observations from a re-analysis of the deposited data

Results flagged for a closer look

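For Sdhb, the iron-sulfur subunit of complex II, the Synpr classes differed in opposite directions in 2 labels. The log2 ratio of mean CPM, Synpr-high over Synpr-lower, was 0.134 in LEC cells and -0.148 in unlabelled cells, with every projection mouse on the side of its label. The LEC values were 595, 548 and 551 CPM in Synpr-high against 538, 497 and 508 CPM in Synpr-lower sums, and the unlabelled values 399, 466.1 and 454 against 463, 525 and 474 CPM. Sdhb was picked out of the members for this pattern after the values were seen. The LEC Synpr-high sums rest on 18, 11 and 16 cells, and the difference between the labels was not tested.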

How the results depend on the processing

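The share of all counts taken by the OXPHOS genes was lower in Synpr-high cells under every alternative run, with a difference of -0.591 percentage points as reported, -0.624 after thinning to 20000 counts and -0.630 against Synpr-lower cells with Slc30a3. Calls of single genes depended on the setting, and the cause was not tested. Between Synpr classes 16 members were lower. With library totals alone this was 25, over all 4 mice together 5 (26 with the mouse as a block, and then 2 higher), and without single mice 0 to 1. Over all genes 775 of 13957 were lower, and 908 with library totals alone. Over all 4 mice it was 595 of 13423 (1028 with the block, and 1064 higher), and without single mice 289 to 403. Between RSC and LEC cells 1 member was lower. The block gave 2, DESeq2 10, library totals alone 6, no filter 0, thinning 2, at least 2 marker counts 2, and leaving out any 1 mouse 0. Over all genes 288 of 13976 were lower, 279 with the block, 592 with DESeq2 and 344 with library totals alone. It was 345 of 22434 without a filter, 376 of 10091 after thinning, 305 of 13936 with 2 marker counts and 32 to 195 without single mice. RSC against unlabelled cells gave 0 as reported, 1 with the block, 15 with DESeq2, 1 with library totals alone and 10 after thinning. In the same order, 130, 124, 365 and 138 of all 13976 genes and 235 of 10091 genes were lower. Within label 15 were lower, 23 with library totals alone, 8 after thinning and 2 to 8 without single mice, and the 2 higher genes became 1 with library totals alone, without a filter, after thinning or against cells with Slc30a3, and 0 to 1 without single mice. Over all genes 707 of 13163 were lower, 801 with library totals alone, 612 of 9438 after thinning and 342 to 398 without single mice. Higher were 821, 743 with library totals alone, 835 without a filter, 710 after thinning, 753 against cells with Slc30a3 and 412 to 487 without single mice. Within class DESeq2 called 1 member and 77 of all 13163 genes lower. In the blindly sampled mouse 1 member lower past 1.5-fold became 0 at a Synpr limit of 500 CPM and 2 after thinning. Over all genes these were 1407 and 1427 of 9339 and 1037 of 7481.

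Of the 84 members tested between Synpr classes, 67 to 73 lay below 0 under the alternatives that kept the same 84, against 70 as reported. Among the genes named by rule, signs turned in 3 uncalled ones: the log2 fold change of Cox6a1 ran from -0.0878 to 0.0006 without single mice, Atp5g2 stood at -0.0732 against cells with Slc30a3, and Sdhc ran from -0.169 to 0.115 without single mice and stood at 0.190 after thinning, 0.0345 at a Synpr limit of 500 CPM, 0.0467 over all 4 mice and 0.0385 over all 4 with a block. The block changed no call beyond those given.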
